A study of Mus musculus with 6 samples.

Results

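The genes described here are 7 matrix metalloproteinases (Mmp2, Mmp3, Mmp9, Mmp10, Mmp11, Mmp13 and Mmp14) and 3 tissue inhibitors of metalloproteinases (Timp1, Timp2 and Timp3). Every probe whose symbol in the platform annotation was one of these 10 names was taken, which gave 12 of 20308 probes with a signal above the negative controls on at least 1 array. All 10 genes had such a probe, and Timp1 and Timp3 had 2 each. The array carried 45281 probes, and the other 24973 were below detection on every array and had no name in the annotation used here, so further probes of these genes among them were not analysed here. The samples were 3T3-CrT cells, mouse 3T3 Tet Off fibroblasts that stably express a tagged rabbit cDNA of the creatine transporter (CrT), a transgene that both groups carried. In 3 wells creatine monohydrate (Cr) was added to the growth medium at 5 mM for 3 h, and 3 wells remained untreated as controls. Both groups grew as adherent cultures on 6-well plates in high glucose medium with serum, G418 and puromycin. The replicates were wells of 1 cell line. The tests below therefore reflect well-to-well spread, which may be technical, and 3 arrays per group limit the precision.

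Metalloproteinases are zinc-dependent enzymes that cut collagens and other matrix proteins, and most are secreted as inactive proenzymes. Timp proteins bind the active site and block it. Fibroblasts are a main source of both, and in these cells some of the enzymes are made steadily whereas others are induced by growth factors, cytokines and serum through AP-1 transcription factors of the Fos and Jun families.

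Total RNA of each well was labelled and hybridized to an array of its own (Illumina Mouse WG-6 v2 BeadChip). The signal is in arbitrary units with no background subtracted, and the detection p ranks a probe against the negative control probes of its own array. The median signal of all probes was 152 to 161 on the Cr arrays and 157 to 167 on the untreated arrays, and each array detected 36.2% to 39.1% of probes (detection p up to 0.05). A gene is called measured here if a named probe of it was detected on at least 1 array. Genes not measured may have been on the array below detection. Of 14 fibroblast markers 10 were measured and 9 were detected on all 6 arrays, against 79.0% of all 10585 named genes measured. Thy1, Postn, Dcn and Lum were not among the measured genes. Of 10 macrophage markers 3 were measured (Cd14, Csf1r and Mrc1), and 2 were detected on all 6 arrays. Cd68, Adgre1, Ptprc and Itgam were among those not measured. The summed signal of the 3 measured macrophage markers was 1167 to 1320 on the Cr arrays and 1145 to 1423 on the untreated arrays. Of 8 epithelial markers 3 were measured and 2 were detected on all 6 arrays. Of 8 endothelial and 8 skeletal muscle markers 3 each were measured, and 0 were detected on all 6 arrays. Of 8 adipocyte markers 0 were measured. Untreated replicate 1 stood apart from the other arrays, with a score of -18.9 on the first principal component, which held 37.4% of the variance, against -2.64 to 10.9. Untreated replicate 3 stood apart on the second component, which held 19.7%, with a score of 13.4 against -6.51 to 3.24.

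The stretches around the transcription start are shown for 6 of the genes, since the promoters of the family differ in the elements they hold. They come from RefSeq (GRCm38.p6), which listed 8 of the 10 genes and not Mmp2 or Mmp9, and each runs 5′ to 3′ on the strand of its gene, from 70 bases before the start to the end of the first 50 bases of the transcript. Capitals mark matches to the AP-1 element TGANTCA, the related heptamer TGAGTAA, the TATA box TATAAA and the GC box GGGCGG, each searched on both strands.
Mmp3 (chr9:7445752-7445871, plus strand): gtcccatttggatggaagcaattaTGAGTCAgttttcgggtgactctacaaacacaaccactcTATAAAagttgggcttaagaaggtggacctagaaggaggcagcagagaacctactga
Mmp10 (chr9:7502272-7502391, plus strand): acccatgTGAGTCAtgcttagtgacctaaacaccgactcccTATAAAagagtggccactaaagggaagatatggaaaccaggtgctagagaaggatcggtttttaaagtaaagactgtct
Mmp13 (chr9:7272444-7272563, plus strand): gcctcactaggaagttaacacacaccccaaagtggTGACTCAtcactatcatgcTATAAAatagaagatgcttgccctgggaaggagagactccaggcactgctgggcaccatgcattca
Timp1 (chrX:20870096-20870215, plus strand): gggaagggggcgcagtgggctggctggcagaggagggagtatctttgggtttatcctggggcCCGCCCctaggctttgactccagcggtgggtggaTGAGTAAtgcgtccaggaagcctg
Mmp14 (chr14:54431528-54431647, plus strand): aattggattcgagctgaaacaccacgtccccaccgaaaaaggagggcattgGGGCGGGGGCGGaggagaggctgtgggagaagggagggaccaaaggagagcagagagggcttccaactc
Timp2 (chr11:118355362-118355481, minus strand): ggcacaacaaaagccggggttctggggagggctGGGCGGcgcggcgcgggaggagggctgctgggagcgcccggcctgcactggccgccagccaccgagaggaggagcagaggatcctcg
In a window of 300 bases, 250 before the start and 50 after, the promoters of Mmp3, Mmp10 and Mmp13 each held 1 TGANTCA match, beginning 46, 63 and 35 bases before the start. Each also held a TATAAA match downstream of it, beginning 7, 29 and 16 bases before the listed start. The other 5 listed genes held neither. Of all 32851 promoters in the table, 7.81% held TGANTCA and 13.6% held TATAAA. Mmp11, Mmp14, Timp1, Timp2 and Timp3 held at least 1 GC box, as did 35.7% of all promoters, and in Mmp14 a pair of them abutted. The Timp1 window held TGAGTAA 26 bases after the start, a heptamer found in 2.68% of all promoters. That heptamer was searched as the AP-1-like element of Timp1, so its match in this gene is no independent finding. The searched motifs did not overlap in these windows. Mmp3, Mmp10 and Mmp13 also lie together, in a run of 10 Mmp genes on mouse chromosome 9 with no other protein-coding gene between them. Of those 10 genes, 4 had a measured probe (Mmp13, Mmp3, Mmp1a and Mmp10). A match is a description of letters and does not show that a factor was bound there.

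None of the 12 probes was called with 5 mM Cr at an adjusted p of 0.05 or less (limma, Benjamini-Hochberg over all tested probes), a rule that called 6 of all 20308 probes, or 0.0295%. At an unadjusted p of 0.05 or less there were 2 of the 12, against 5.04% of all probes, and both were Timp1 probes that were lower with Cr, against 2.60% of all probes in that direction. They were also the only probes of the family on which the groups did not overlap after normalization, against 10.7% of all probes in either direction. All Cr values were lower on 2 of the 12 probes, against 5.15% of all probes, and higher on 0, against 5.59%. Both probes read 1 gene. With the brightest probe of each gene, 1 of 10 genes had an unadjusted p of 0.05 or less, against 5.27% of all named genes. All Cr values were lower for 1 of 10 genes, against 5.31%. On all 6 arrays 9 of the 12 probes were detected, against 73.8% of all tested probes. The log2 differences of the 12 probes, with untreated values subtracted from 5 mM Cr values after vsn normalization (a log2-like scale), lay between -0.31 and 0.14, and 8 were below 0 and 4 above. With the brightest probe of each gene the median of the 10 genes was -0.038, beside 0.003 for all 10585 named genes. This median was -0.0010 without untreated replicate 1, and over all alternatives, arrays left out included, it lay between -0.046 and 0.0035. Standard errors were between 0.077 and 0.14.

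**Figure D1:**
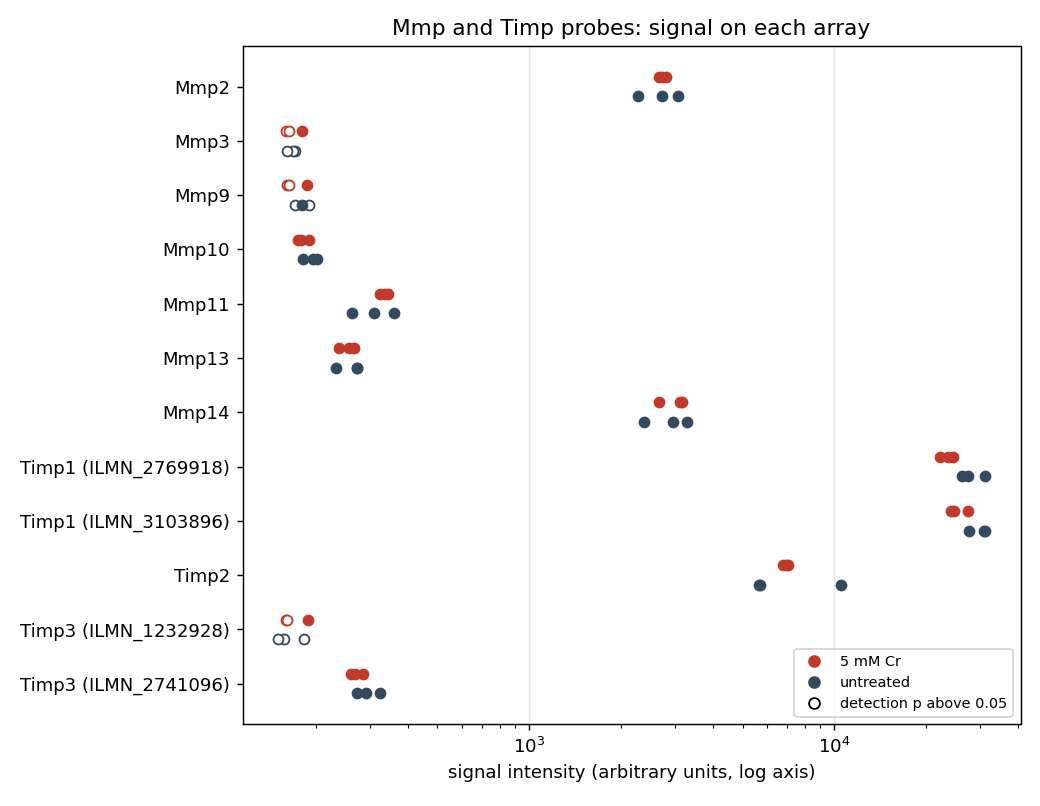
Signal of each Mmp and Timp probe on each of the 6 arrays (log axis, arbitrary units), with 5 mM Cr above untreated for every probe. Open points have a detection p above 0.05, and they occur only on Mmp3, Mmp9 and a Timp3 probe. Levels of different probes are not comparable. The Timp1 probes lie between 22104 and 31184.

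The Mmp2, Mmp14 and Timp2 proteins work as a complex at the cell surface. Mmp14, a membrane-anchored metalloproteinase, holds the proenzyme of gelatinase A, the product of Mmp2, through a Timp2 bridge and cuts it into its active form. All 3 genes were detected on all 6 arrays. The Mmp2 signal was 2664, 2714 and 2815 on the Cr arrays and 3070, 2730 and 2266 on the untreated arrays. The Cr values lay within the untreated range, and the log2 difference after normalization was -0.0035 (standard error 0.077, adjusted p = 1.00 from limma). The 95% confidence interval ran from 89.0% to 112% of untreated. The sign of this small value turned under several settings, with values from -0.013 to 0.047. The Mmp14 signal was 2657, 3113 and 3155 with Cr and 3298, 2962 and 2375 in untreated controls. Its groups overlapped, and it had a log2 difference of 0.02 (standard error 0.082), with an interval of 89.8% to 114% of untreated. Without Cr replicate 2 the difference of Mmp14 was -0.010. For both genes, normalization removed most of the spread of the untreated signals, and the SD of the normalized values was 0.019 with Cr and 0.026 untreated for Mmp2, and 0.092 with Cr and 0.039 untreated for Mmp14 (n = 3 each).

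Timp2 was close together on the Cr arrays and widely spread on the untreated ones. Its signal was 6918, 6791 and 7036 with Cr, against 10542, 5698 and 5640 in untreated controls. Untreated replicate 1 was therefore the highest of the 6 arrays and the other untreated arrays were the lowest. On the normalized scale the SD was 0.050 with Cr and 0.39 untreated (n = 3 each), and the log2 difference was -0.051 (standard error 0.14, adjusted p = 0.996 from limma). That standard error was the largest of the 12 probes. Without untreated replicate 1, which stood apart on the first component, the difference of Timp2 was 0.16 (standard error 0.095, adjusted p = 0.822 from limma). Without untreated replicate 2 it was -0.22. The direction of Timp2 thus rested on single untreated arrays.

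Timp1, which encodes a secreted inhibitor with a high affinity for gelatinase B, gave lower values with Cr on both of its probes, with no overlap between the groups, though neither probe passed the test after adjustment. On probe ILMN_2769918 the signal was 22104, 23546 and 24518 with 5 mM Cr, against 31163, 27415 and 26210 in untreated controls. The Cr and untreated arrays were separate already in the signals, at 23389 ± 1215 with Cr and 28263 ± 2583 untreated (SD, n = 3 each). The normalized log2 difference was -0.31 (standard error 0.084, unadjusted p = 0.00215, adjusted p = 0.547 from limma). This corresponds to 80.5% of the untreated level, with a 95% confidence interval of 71.1% to 91.2%. On probe ILMN_3103896 the signal was 24066, 27358 and 24627 with Cr and 30838, 31184 and 27684 in untreated controls. Here the gap was narrow, since Cr replicate 2 lay just under untreated replicate 3 in signal. The log2 difference of this probe was -0.28 (standard error 0.091, unadjusted p = 0.00757, adjusted p = 0.788 from limma), and the level was 82.3% of that in untreated controls (72.0% to 94.2%). For each probe an exact permutation test, two-sided, gave p = 0.1, the smallest possible with 3 arrays against 3. By unadjusted p the probes ranked 80 and 195 among 20308. The probes read the same RNA and are not independent, and over the 6 arrays their normalized values had a Pearson's r of 0.87.

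The Timp1 difference kept its sign with each array left out. It lay between -0.36 and -0.25 on probe ILMN_2769918 and between -0.35 and -0.22 on probe ILMN_3103896, smallest on both without untreated replicate 3. Across the other settings it lay between -0.34 and -0.26 on probe ILMN_2769918 and between -0.34 and -0.23 on probe ILMN_3103896, and the adjusted p from limma was at least 0.251 and 0.298 under any setting run. With normexp background correction and median scaling, the unadjusted p from limma was 0.0537 on probe ILMN_2769918 and 0.0846 on probe ILMN_3103896. With background correction and quantile normalization (neqc) the unadjusted p from limma was 0.0215 and 0.0626. With quantile normalization, with or without background correction, the groups of probe ILMN_3103896 overlapped. The named genes whose pattern over the 6 arrays was most like probe ILMN_2769918 of Timp1, among 14997 probes detected on all arrays, were Axl, Adsl, Rida, Ost4 and Med14, with Pearson's r between 0.97 and 0.99. These values describe 6 arrays and have no test. The differences of those genes with Cr were smaller, from -0.20 for Rida to -0.073 for Ost4.

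**Figure D2:**
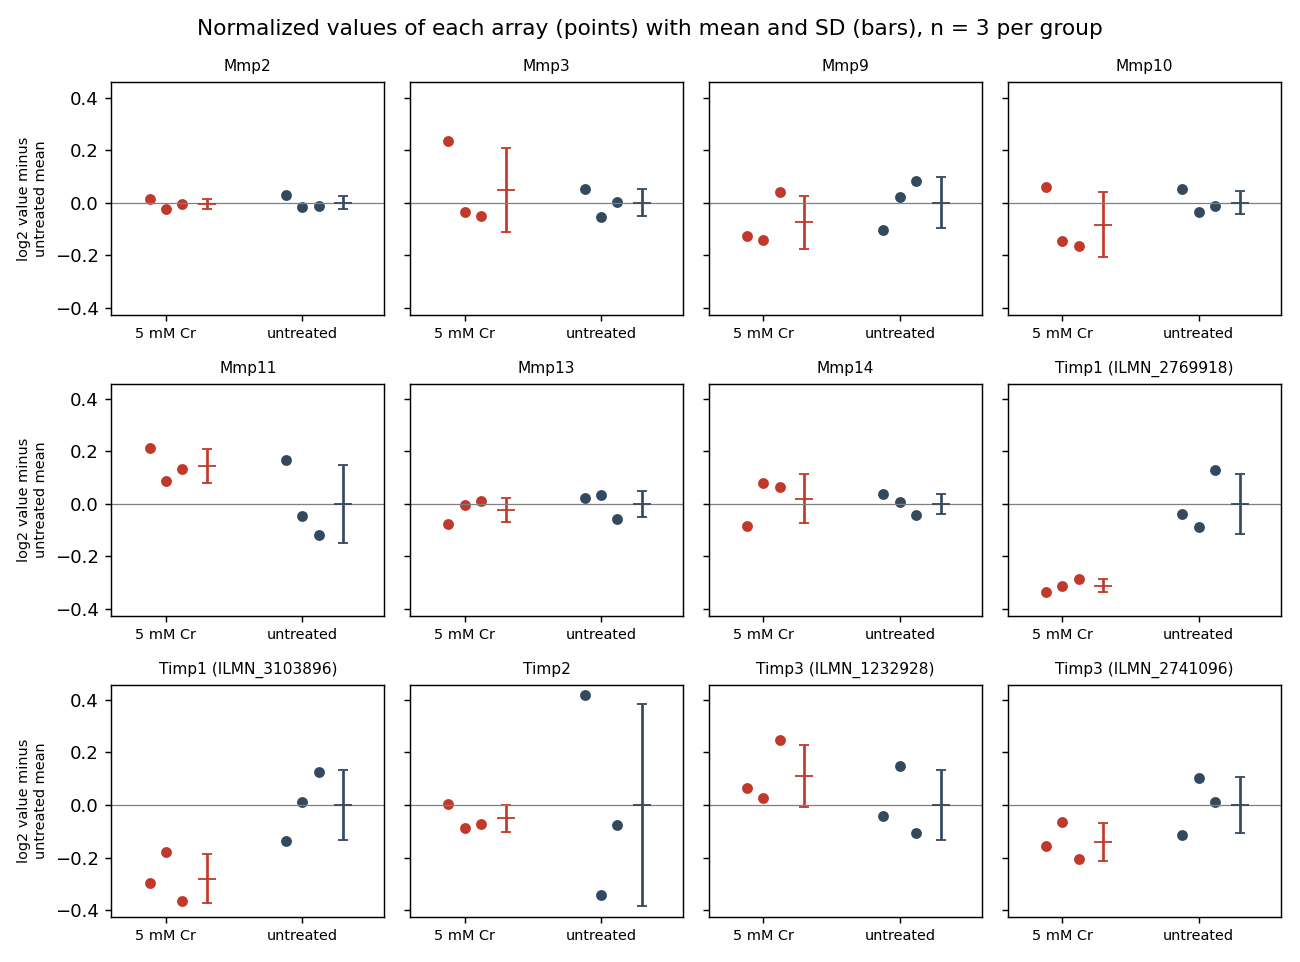
Normalized log2 value of each array minus the mean of the untreated arrays, by probe, with 5 mM Cr left of untreated, in the order replicate 1 to 3, and the mean with SD beside the points. The Cr points of Timp1 all lie below the untreated points, and the untreated points of Timp2 spread from -0.34 to 0.42.

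Timp3 encodes the inhibitor that stays bound to the matrix and also blocks Adam17. On the brighter probe, ILMN_2741096, it had a signal of 260, 284 and 269 with Cr and 291, 324 and 272 in untreated controls, all detected. These groups overlapped after normalization, with a log2 difference of -0.14 (standard error 0.086, adjusted p = 0.986 from limma). The dimmer probe, ILMN_1232928, was detected on Cr replicate 3 alone, at 188, and lay between 150 and 182 elsewhere. It was not detected on any untreated array, so that no fold can be given and its fitted difference of 0.11 (standard error 0.093) bears no direction. On the brighter Timp3 probe the difference was -0.091 without untreated replicate 2 and -0.23 with neqc (background correction and quantile normalization).

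The stromelysins Mmp3 and Mmp10 and the collagenase Mmp13, whose promoters held the AP-1 and TATA elements shown above, gave low signals in both groups. Mmp13, which encodes a collagenase that degrades fibrillar collagen, had a signal of 238, 256 and 266 with Cr and 273, 273 and 232 in untreated controls. It was detected on all 6 arrays and its groups overlapped, with a log2 difference of -0.024 (standard error 0.079) and an interval of 87.5% to 111% of untreated. Without Cr replicate 1 its sign turned, at 0.0027. Mmp10 was also detected on all 6 arrays, but close to the limit. Its detection p was 0.0118, 0.0427 and 0.0470 on the Cr arrays and 0.00962, 0.0331 and 0.0118 on the untreated arrays. The Mmp10 signal was 190, 174 and 178 with Cr and 201, 195 and 182 in untreated controls. After normalization Cr replicate 1 was above all the untreated arrays and the other Cr arrays below them, so the groups overlapped, and the log2 difference was -0.084 (standard error 0.086, adjusted p = 0.987 from limma). The Mmp10 difference was -0.16 without Cr replicate 1, -0.053 without Cr replicate 2 and -0.043 without Cr replicate 3. Mmp3 was detected on Cr replicate 1 only, at a signal of 180. The other 5 arrays had 159 and 163 with Cr and 171, 168 and 161 untreated, and no fold can be given. Its fitted log2 difference was 0.049 (standard error 0.092), and it was -0.044 without Cr replicate 1. A difference in Mmp3 was not measurable at this signal.

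Mmp9, the gene of gelatinase B, was near the detection limit too. Its signal was 161, 164 and 187 with Cr and 171, 189 and 180 in untreated controls, and it was detected on 1 array of each group. The groups overlapped, with a log2 difference of -0.075 (standard error 0.087, adjusted p = 0.991 from limma). The Mmp9 difference ranged, as arrays were left out in turn, from -0.13, without Cr replicate 3, to -0.033, without untreated replicate 3. Mmp11 encodes stromelysin 3, a metalloproteinase that furin activates inside the cell, and its promoter held 4 GC boxes and no AP-1 element. Its signal was 338, 324 and 343 with Cr and 361, 309 and 262 in untreated controls, detected on every array. It had the largest positive difference of the 12 probes, 0.14 (standard error 0.091, adjusted p = 0.986 from limma), which is 111% of the untreated level (96.6% to 126%). Untreated replicate 1 lay within the Cr range after normalization and the other untreated arrays below it. Without untreated replicate 1 the difference of Mmp11 was 0.23 and without untreated replicate 3 it was 0.084.

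**Figure D3:**
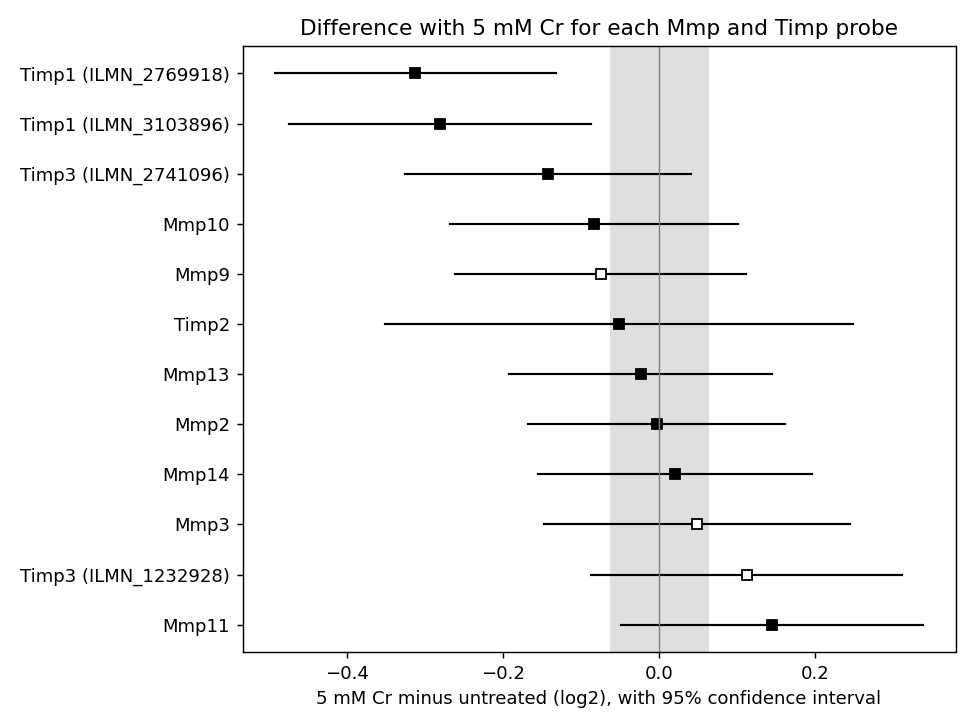
Log2 difference of each probe, 5 mM Cr minus untreated (squares), with its 95% confidence interval from the moderated fit. The grey band is the interquartile range of all 20308 probes, from -0.063 to 0.063, and open squares mark probes not detected on all 6 arrays. The intervals of the Timp1 probes alone exclude 0, before adjustment for the number of probes.

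**Figure D4:**
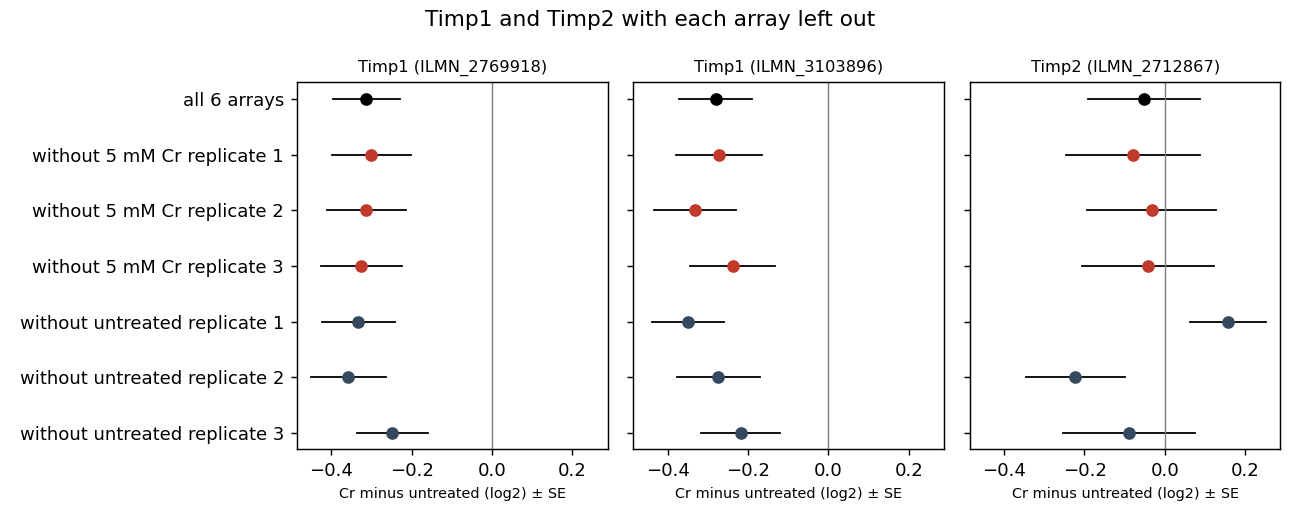
Log2 difference of both Timp1 probes and of Timp2, 5 mM Cr minus untreated, with its standard error, on all 6 arrays and with each array left out in turn. The Timp1 values stay below 0, whereas Timp2 moves from -0.22 to 0.16.

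Other genes of the pathway were set beside the family in 5 lists, with the brightest probe of each gene, and none of their measured genes was called over all probes. Counts at an unadjusted p of 0.05 or less are given with each list, beside 5.27% of all named genes. Of 17 other Mmp genes and Timp4, 5 were measured (Mmp1a, Mmp16, Mmp19, Mmp24 and Mmp28) and none reached that level. Mmp24, a membrane-type metalloproteinase, had a signal of 1254, 1393 and 1304 with Cr and 1440, 1292 and 996 untreated. Its log2 difference was 0.072 (standard error 0.083, adjusted p = 0.991 from limma), and Mmp28 and Mmp16 had -0.035 and 0.027, with a second Mmp16 probe at -0.11. All of these groups overlapped.

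Of 23 activators, inhibitors and surface partners of metalloproteinases, 15 were measured, with 2 at an unadjusted p of 0.05 or less and a median of -0.0025. Both were lower with Cr and belong to the plasminogen activator system, which can activate proenzymes of metalloproteinases. Serpinb2, an inhibitor of urokinase, had a signal of 1484, 1351 and 1473 with Cr, against 2109, 2319 and 1760 in untreated controls. Its log2 difference was -0.56 (standard error 0.091, adjusted p = 0.0515 from limma), just above the threshold. It passed under several alternatives, among them the authors' deposited values (adjusted p = 0.0243 from limma) and the fit without untreated replicate 1 (adjusted p = 0.0373). It did not pass with neqc, with normexp and median scaling, or among only the probes detected on all 6 arrays. Nor did it pass with any other array left out. Plaur, the urokinase receptor gene, had -0.22 (standard error 0.089, adjusted p = 0.948 from limma), and Plau, the gene of urokinase, 0.12. Reck encodes a membrane-anchored inhibitor of metalloproteinases. Its signal was 188, 198 and 203 with Cr and 232, 221 and 195 untreated, with log2 differences of -0.14 and -0.12 on its probes (adjusted p = 0.986 from limma for both). The groups of the brighter Reck probe did not overlap after normalization. Furin had -0.046 on its brighter probe and -0.21 on the other.

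Of 19 Adam and Adamts genes 12 were measured, with a median of -0.0087 and 1 at an unadjusted p of 0.05 or less. That gene, Adamts6, had a signal of 226, 234 and 250 with Cr, against 319, 285 and 275 in untreated controls, which did not overlap. Its log2 difference was -0.36 (standard error 0.082, adjusted p = 0.289 from limma), with -0.18 on another probe. The dimmest Adamts6 probe was not detected on any Cr array. Adamts9 was not detected on any Cr array and Adamts10 on no untreated array, so that no fold can be given for them. Of 20 matrix proteins that metalloproteinases cut, 17 were measured, all detected on all 6 arrays, against 79.0% of all named genes. Their median was -0.0042, with 1 at an unadjusted p of 0.05 or less. Tnc, which encodes tenascin C, had a signal of 1710, 1895 and 1966 with Cr, against 2702, 2286 and 1784 in untreated controls, and its normalized groups did not overlap. Its log2 difference was -0.31 (standard error 0.084, adjusted p = 0.573 from limma), with -0.25, -0.13 and -0.0029 on its other probes. Col3a1 had -0.19 and Fn1 0.10 on their brightest probes, and other Fn1 probes had between -0.12 and 0.083.

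Of 17 transcription factors that bind Mmp promoters, 14 were measured, all detected on all 6 arrays, against 79.0% of all named genes. Fosl1, Runx2 and Nfkb1 were not measured. Of these 14, 5 had an unadjusted p of 0.05 or less, all lower with Cr, and 12 were below 0 and 2 above, with a median of -0.14 beside 0.003 for all named genes. Without untreated replicate 1, which stood apart on the first component, the median of these factors was -0.064. With each other array left out it lay between -0.19 and -0.11. Several of these values were known when the list was made, so the count is no independent evidence. Fos, a partner of Jun in AP-1, had a signal of 360, 319 and 384 with Cr, against 568, 446 and 412 in untreated controls. Its log2 difference was -0.47 (standard error 0.10, adjusted p = 0.220 from limma). Junb had -0.41 (adjusted p = 0.271 from limma), Fosl2 -0.33 (adjusted p = 0.465) and Jund -0.28 (adjusted p = 0.917), and the groups of each did not overlap after normalization. Cebpb, outside the Fos and Jun families, had -0.22 (adjusted p = 0.948 from limma), also without overlap after normalization. In the signals the groups of Fosl2, Jund and Cebpb overlapped. Jun itself had -0.024 and Fosb -0.16, and the groups of both overlapped, so the measured AP-1 genes did not all differ alike. On the same arrays Mmp3, Mmp10 and Mmp13, the genes whose promoters held TGANTCA, had differences of 0.049, -0.084 and -0.024, with Mmp3 and Mmp10 at or near the detection limit. Whether the factors and these genes move together was not tested.

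**Figure D5:**
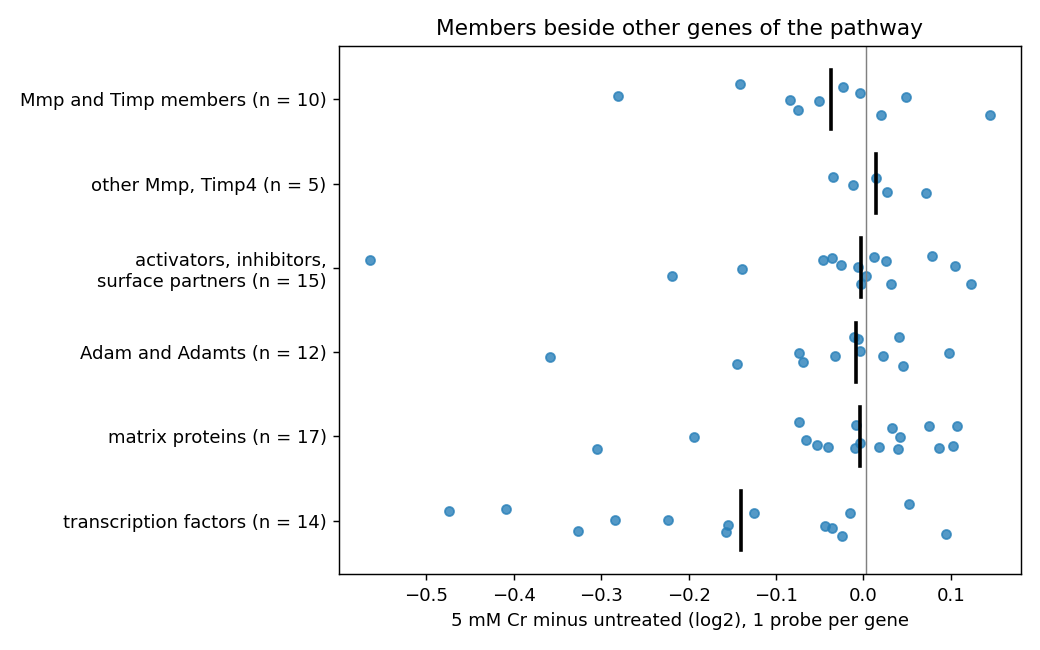
Log2 difference of each measured gene, 5 mM Cr minus untreated, in the Mmp and Timp family and in the 5 other lists, with 1 probe per gene. Black bars are list medians and the grey line is the median of all named genes, 0.003. The transcription factors have a median of -0.14 (-0.064 without untreated replicate 1), the other lists medians between -0.038 and 0.014.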

How the data were processed

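The deposited export holds a signal intensity for each of 45281 probes, taken by the authors from GenomeStudio without background subtraction. The deposited detection p-value gives the rank of a probe among the negative controls. The deposited processed values are log2 values that the authors made by background correction and vsn, and they ranked probes as the signals of each array did. The genome build of the probes is not given in the sources used here, and probe coordinates are left out.

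From the signals, the vsn model (offset and scale per array inside an asinh) was fitted to all probes in R 4.3.3, with trimming at a quantile of 0.9 in 7 rounds. Probes detected (p up to 0.05) on 1 array or more entered a limma 3.58.1 fit (lmFit, eBayes) of the groups alone, and the two-sided test called a probe at a Benjamini-Hochberg adjusted p of 0.05 or less. Confidence intervals are 95% intervals of that fit, and percentages are back-transformed differences. No fold is given for a probe without detection on any array of a group where the bound from the detection limit fell under 1. The fits were tested on simulated arrays. Symbols come from the platform annotation, in which 16925 tested probes had 1 symbol, 7 several and 3376 none.

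The text names every probe of the 10 genes and, of each other list, the genes of lowest unadjusted p. Plau, Furin, Jund, Jun, Fosb and Cebpb were added after their values were seen. The members and lists were chosen with earlier results of these data known. Replicate numbers were checked for pairing by correlating deviations from group means. Alternatives are given in the closing section. Plots used Python 3.11.15 and matplotlib 3.10.9.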

Additional observations from a re-analysis of the deposited data

How the results depend on the processing

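No probe of the 10 genes was called under any alternative run, and at an unadjusted p of 0.05 or less there were between 0 and 4 (limma). Over all probes the count was 6, against 12 with the authors' deposited values, 12 with log2 and quantile normalization, 10 without a filter, 13 with a trended robust variance, 15 with array weights, 14 with the replicate block, 0 with neqc (1146 at an unadjusted p of 0.05 or less), 0 with normexp and median scaling (1001), and 0 to 9 with an array left out. Of the genes in the 5 other lists none was called, against 1, Serpinb2, with the deposited values, with log2 and quantile normalization, without a filter, with a trended robust variance, with array weights and with 1 probe per gene, and 0 to 1 with an array left out. With the replicate number as a block, 2 were called, Serpinb2 (adjusted p = 0.0380 from limma) and Fos (adjusted p = 0.0477). Same-numbered samples had deviations with r of 0.24, 0.31 and -0.031, so the numbers were not taken to pair the samples, and Cr replicate 3 correlated best with untreated replicate 1.

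Small differences turned sign. Mmp2 had 0.0016 with neqc, 0.0015 with log2 and quantile normalization, 0.047 with normexp and median scaling, and 0.0038 with array weights. Mmp13 had 0.0079 with normexp and median scaling, and Timp2 0.021 with array weights. With an array left out, Mmp2 ranged from -0.013 to 0.011, Mmp13 from -0.052 to 0.0027, Mmp14 from -0.010 to 0.073, Mmp3 from -0.044 to 0.099 and Timp2 from -0.22 to 0.16. Others kept their sign but moved in size. With an array left out, Mmp9 ranged from -0.13 to -0.033, Mmp10 from -0.16 to -0.043, Mmp11 from 0.084 to 0.23, the brighter Timp3 probe from -0.20 to -0.091 and the median of the transcription factors from -0.19 to -0.064. With neqc, Mmp9 had -0.16, Mmp10 -0.19 and the brighter Timp3 probe -0.23, and Mmp11 had 0.26 with normexp and median scaling. The medians of the 4 other lists lay between -0.043 and 0.071 and turned sign. The cause was not tested. Median scaling after normexp moved the median of all probes to 0.049. Mmp3, Mmp9 and the dim Timp3 probe, near background, bear no statement on direction.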
